A study of Mus musculus with 12 samples.

Results

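The genes described here encode the sealing and adhesive proteins of the tight and adherens junctions that close the arachnoid barrier layer and the blood vessels of the meninges. They are Cldn5, Cldn11, Cldn1, Ocln, Marveld2, F11r, Tjp1, Cdh5 and Cdh1, chosen by symbol, and all 9 were found among the 47747 gene symbols of the count table. Total RNA of the meninges, the coverings of the brain, was sequenced from 12 C57bl/6 mice, 1 library per mouse. In the DSS group 6 mice drank 2% dextran sulfate sodium, a polymer that injures the colon lining, for 5 days and then normal water, and the Control group held the other 6 mice. Culling was after 6 days, counted from a start that the labels do not state, and they give no age or sex and no agent for the controls. The comparison asks whether meningeal gene expression differs between mice given DSS and controls.

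In a tight junction, claudins, occludin and tricellulin are the membrane proteins that seal the space between neighbouring cells, junctional adhesion molecules help to position them, and zonula occludens proteins tie them to the actin cytoskeleton. Cadherins of the adherens junction hold the same cells together through catenins. In the meninges the arachnoid barrier layer, an epithelium-like sheet under the dura, is sealed by junctions that contain claudin 11 and E-cadherin, whereas vessels are sealed by endothelial junctions with claudin 5 and VE-cadherin.

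The promoter sequences of the 3 claudins are shown because these genes gave both the member that passed the test and members that did not. Each is the run of 250 bases before the gene's start in RefSeq on GRCm38.p6, written 5′ to 3′ on the gene's strand. Capitals mark matches on either strand to any of 4 motifs, none of which is contained in another. The E-box was searched as CAGGTG, and the GC box was searched as GGGCGG. For the TATA box the letters were TATAAA, while the CCAAT box was searched by the letters of its name. The windows are chr3:31149670-31149919 on the plus strand for Cldn11, chr16:18776597-18776846 on the plus strand for Cldn5 and chr16:26371840-26372089 on the minus strand for Cldn1.
Cldn11: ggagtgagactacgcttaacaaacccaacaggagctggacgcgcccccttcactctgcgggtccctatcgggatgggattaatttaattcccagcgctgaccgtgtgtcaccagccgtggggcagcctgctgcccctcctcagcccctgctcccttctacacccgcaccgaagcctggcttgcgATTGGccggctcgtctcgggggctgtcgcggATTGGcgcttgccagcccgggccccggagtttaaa
Cldn5: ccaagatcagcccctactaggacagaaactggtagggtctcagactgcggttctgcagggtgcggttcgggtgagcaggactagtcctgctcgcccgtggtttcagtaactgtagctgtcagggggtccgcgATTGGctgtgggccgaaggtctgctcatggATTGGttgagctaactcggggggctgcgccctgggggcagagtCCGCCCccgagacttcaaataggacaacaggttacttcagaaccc
Cldn1: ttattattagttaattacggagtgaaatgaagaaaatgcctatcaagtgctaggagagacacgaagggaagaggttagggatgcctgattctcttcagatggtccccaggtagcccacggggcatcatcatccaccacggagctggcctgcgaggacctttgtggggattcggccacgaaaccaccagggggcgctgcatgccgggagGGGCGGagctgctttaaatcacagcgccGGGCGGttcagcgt
The Cldn11 window held 2 CCAAT boxes, both on the opposite strand, and none of the other motifs. Cldn5 also held 2 CCAAT boxes together with 1 GC box, and Cldn1 held 2 GC boxes and no CCAAT box. Among 32851 RefSeq promoter windows of this length, 33.8% held a CCAAT box, 32.7% a GC box, 17.2% an E-box and 12.4% a TATA box. The CCAAT box was added to the search after these sequences had been seen. GC content was 63.6% for Cldn11, 59.6% for Cldn5 and 55.6% for Cldn1, against a median of 52.4% over all windows.

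Libraries held 9312788 to 41869997 counts, with means of 25900000 ± 11600000 for controls against 22600000 ± 5490000 for the DSS group (SD, n = 6 mice each), a difference within the spread (exact two-sided permutation test, p = 0.537). The 18S ribosomal RNA symbol Rn18s-rs5 took 32.3% of the counts of Control 2 and 0.0261% to 5.05% in the other 11 libraries. The labels' source field names the colon, while titles and protocol name the meninges. The fibroblast gene Col1a1 stood at 4160 to 9120 CPM (counts scaled to the size of the library) over the 12 libraries. Of 11 glandular, airway and colon epithelial markers, only the intestinal factor Cdx2 had 0 counts in every library. Their summed level was 8.97 to 14.1 CPM in controls and 7.58 to 17.5 CPM in DSS mice. The most abundant of them, Lgals4, stood at 2.71 to 4.11 CPM in controls and 3.99 to 6.24 CPM in DSS mice. The tissue of origin was not tested. Neutrophil genes separated the groups: their mean log2 CPM was 2.65 ± 0.48 for controls against 5.65 ± 0.84 for DSS mice (SD, n = 6 mice per group, exact permutation p = 0.00216, the smallest that 6 against 6 allows, adjusted p = 0.0346 over 16 library measures).

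Levels of the members spanned a wide range when each was divided by its exon length. In controls Cldn11 was the most abundant at 50.7 ± 4.7 CPM per kb of exon (SD, n = 6). It was followed by Cldn5 at 34.5 ± 3.43, Cdh5 at 23.3 ± 2.81 and Tjp1 at 12.2 ± 1.38 CPM per kb. F11r stood at 6.52 ± 1.08, Cdh1 at 4.64 ± 0.988, Ocln at 2.42 ± 0.612 and Cldn1 at 2.35 ± 0.9 CPM per kb. Marveld2 was last at 0.284 ± 0.0699 CPM per kb, so that the highest member lay 178-fold above the lowest. Neighbours in this order had control values that did not overlap, except F11r with Cdh1, Cdh1 with Ocln and Ocln with Cldn1. Cdh1 lay above Ocln in 6 of 6 controls, F11r above Cdh1 in 5 of 6, and Ocln above Cldn1 in 2 of 6, so the order of this last pair was not resolved. The order of the means was the same in DSS mice.

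**Figure D1:**
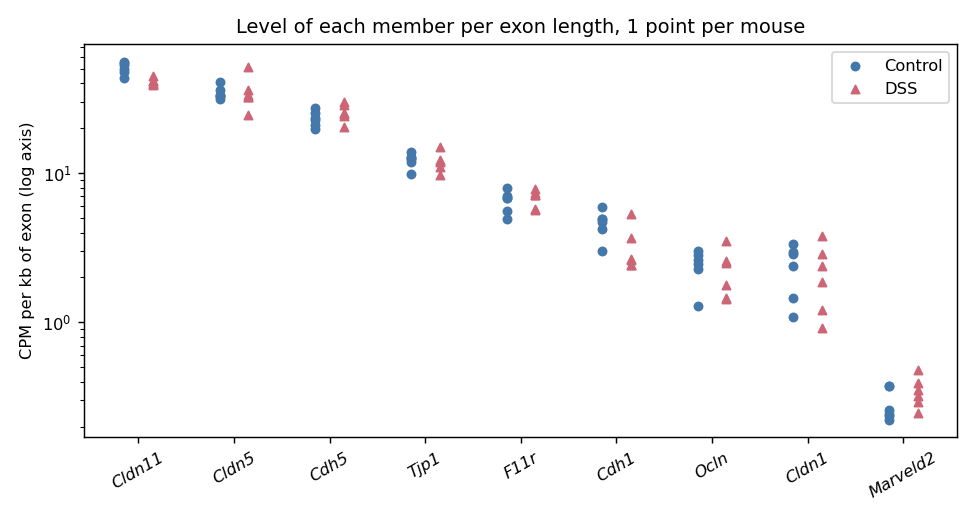
Level of each junction gene in every mouse, in CPM per kb of exon on a log axis, with circles for controls and triangles for DSS mice. Genes stand in the order of their control means, from Cldn11 at 50.7 to Marveld2 at 0.284 CPM per kb, and the values of neighbours such as Ocln and Cldn1 overlap.

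Between DSS and control mice, Cldn11 fell and none of the other 8 members passed the test. All 9 members passed the filter on low counts, and with edgeR's quasi-likelihood test at an adjusted p under 0.05, 0 members were called higher and 1 lower. Of all 18593 tested genes 4.94% were called, 3.68% higher and 1.26% lower. Members with an unadjusted p under 0.05 numbered 2, Cldn11 and Cdh1, against 3525 of all tested genes. The median log2 fold change of the members was -0.03 and 5 of 9 were below 0, against a median of -0.02 and 10178 of 18593 over all tested genes. No member had all DSS mice below all controls, an arrangement found in 0.823% of tested genes. A p that misses the threshold does not show that the groups are alike, so intervals are given for the members that were not called. In these bulk samples fewer cells of a type and less RNA per cell cannot be told apart.

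**Figure D2:**
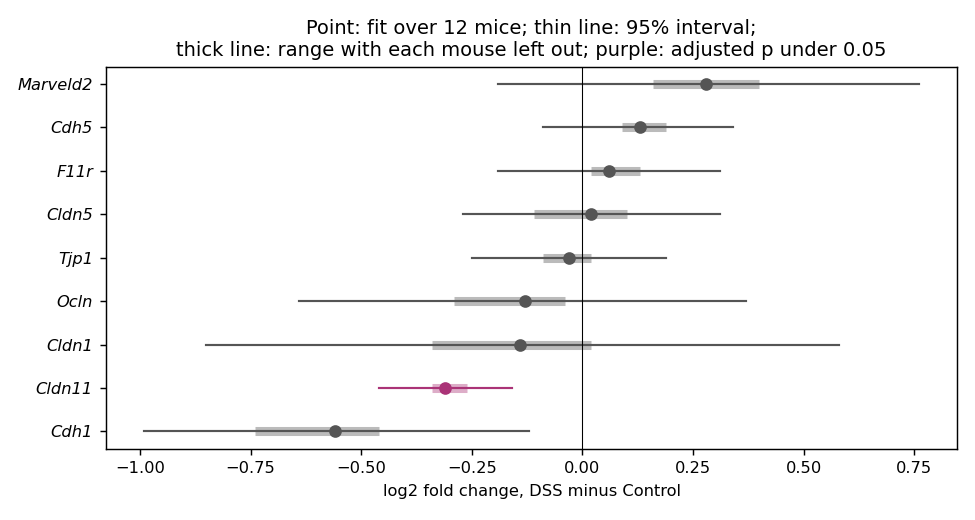
Log2 fold change of each junction gene, DSS minus Control, with its 95% interval as a thin line and the range of estimates when each mouse is left out as a thick line. Cldn11, in purple, is the member with an adjusted p under 0.05, and the intervals of all others except Cdh1 cross 0.

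Claudin 11, the strand-forming claudin of arachnoid barrier cells and of myelin, is encoded on chromosome 3 from 31149920 to 31164324 (GENCODE M21, GRCm38). Its level ranged from 80.8 to 104 CPM in controls with a median of 96.4, and from 72.6 to 84.2 CPM in DSS mice with a median of 75.7. Of the 6 DSS mice 5 lay below the lowest control, and the exception was DSS 3, whose 84.2 CPM exceeded the 80.8 CPM of Control 6. Mean levels were 94.9 ± 8.79 and 76.6 ± 4.2 CPM (SD, n = 6 each), a log2 fold change of -0.31 ± 0.07 (SE), or 1.24-fold lower (95% interval -0.46 to -0.16, edgeR adjusted p = 0.02). Cldn11 was also the steadiest member in both groups, with coefficients of variation of 9.27% in controls and 5.49% in DSS mice. The call was lost in 6 of 21 alternatives. Among them were those without Control 2 (log2 fold change -0.26, edgeR adjusted p = 0.0683), without Control 3 (-0.29, 0.0635) and without Control 5 (-0.29, 0.0533), the 3 controls with the highest Cldn11. Others were without both mice numbered 2 (-0.26, 0.0684) and with the endothelial score as covariate (-0.30, 0.0932), a setting that cut calls over all genes from 919 to 429. Control 2 was also the library in which Rn18s-rs5 took 32.3% of the counts.

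Cldn11 RNA is also made by oligodendrocytes, so their markers are set beside it. Their summed level (11 genes, 6 of them tested, with Mbp the most abundant) was 113 to 180 CPM in controls and 109 to 214 CPM in DSS mice. The mean log2 CPM of the tested markers was 3.73 ± 0.23 and 3.65 ± 0.43 (SD, n = 6 per group, exact permutation p = 0.745, adjusted p = 0.923). Over the 12 mice Cldn11 had a Pearson r of 0.08 with that score (permutation test, p = 0.811, adjusted p = 0.942) and a Spearman rho of 0.13 (permutation p = 0.683, adjusted p = 0.864). Leaving out Control 3 and DSS 2, the mice farthest from the median score, gave r = 0.45. Within groups r was 0.25 in controls and -0.32 in DSS mice. The mean log2 CPM of 20 companion genes of arachnoid barrier cells was 4.52 ± 0.15 for controls against 4.18 ± 0.25 for DSS mice (SD, n = 6 per group, exact permutation p = 0.0195, adjusted p = 0.127). Brain tissue markers, led by the synaptic gene Snap25, also had a lower mean in DSS mice (3.76 ± 0.3 against 3.1 ± 0.48, exact permutation p = 0.0238, adjusted p = 0.127), and the part of either list in the Cldn11 result was not tested.

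Claudin 5, the main claudin of vascular endothelium, is encoded on chromosome 16 from 18776847 to 18778262. Its level ranged from 44.5 to 57.8 CPM in controls (median 46.9) and from 34.7 to 72.6 CPM in DSS mice (median 46.8). The DSS values enclosed every control value, with DSS 5 lowest and DSS 2 highest. The log2 fold change was 0.02 ± 0.14 (SE, 95% interval -0.27 to 0.31, edgeR adjusted p = 0.971). Its coefficient of variation was 9.94% in controls and 25.2% in DSS mice, a difference in spread that was not tested.

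Claudin 1, a claudin of epithelial sheets, is encoded on chromosome 16 from 26356642 to 26371841. It ranged from 5.28 to 16.3 CPM in controls (median 12.8) and from 4.43 to 18.4 CPM in DSS mice (median 10.2). The groups overlapped nearly completely, and Cldn1 was the most variable member, with coefficients of variation of 38.2% and 49.6%. The log2 fold change was -0.14 ± 0.33 (SE) with an interval of -0.85 to 0.58 (edgeR adjusted p = 0.889), so changes of the size seen for Cldn11 in either direction lie inside it.

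Occludin and tricellulin share the MARVEL domain and sit beside claudins, tricellulin at the corners where cells meet. Ocln, on chromosome 13 from 100496507 to 100552718, ranged from 5.4 to 12.7 CPM in controls (median 10.8) and from 6.1 to 14.8 CPM in DSS mice (median 9.02). For Ocln the log2 fold change was -0.13 ± 0.24 (SE, interval -0.64 to 0.37, edgeR adjusted p = 0.834), and the groups overlapped. Marveld2, which encodes tricellulin and lies on the same chromosome from 100595957 to 100616971, had only 9 to 46 counts per library. It ranged from 0.755 to 1.27 CPM in controls (median 0.845) and from 0.832 to 1.61 CPM in DSS mice (median 1.14), with a log2 fold change of 0.28 ± 0.22 (SE, interval -0.19 to 0.76, edgeR adjusted p = 0.547). The 2 groups overlapped for Marveld2 as well.

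F11r, on chromosome 1 from 171437535 to 171464603, encodes the junctional adhesion molecule JAM-A of epithelium, endothelium and platelets. It ranged from 13.2 to 21.2 CPM in controls (median 18.1) and from 15.1 to 20.9 CPM in DSS mice (median 19.0). All DSS values lay inside the control range, and the log2 fold change was 0.06 ± 0.12 (SE, interval -0.19 to 0.31, edgeR adjusted p = 0.854). Tjp1, on chromosome 7 from 65296165 to 65527781, encodes the scaffold ZO-1. It ranged from 76.6 to 109 CPM in controls (median 97.1) and from 75.3 to 117 CPM in DSS mice (median 92.9), with overlapping groups. For Tjp1 the log2 fold change was -0.03 ± 0.1 (SE) and its interval of -0.25 to 0.19 was among the narrower ones (edgeR adjusted p = 0.922).

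VE-cadherin, the adherens junction cadherin of endothelium, is encoded by Cdh5 on chromosome 8 from 104101625 to 104144511. It ranged from 82.7 to 114 CPM in controls (median 97.0) and from 85.5 to 125 CPM in DSS mice (median 105). The groups overlapped, and the log2 fold change was 0.13 ± 0.1 (SE, interval -0.09 to 0.34, edgeR adjusted p = 0.547).

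E-cadherin, the epithelial cadherin that also marks arachnoid barrier cells, is encoded by Cdh1 on chromosome 8 from 106603351 to 106670246. It ranged from 13.7 to 27.3 CPM in controls (median 22.1) and from 11.0 to 24.2 CPM in DSS mice (median 12.1). Of the 6 DSS mice 4 lay below the lowest control, while DSS 1 at 16.7 and DSS 2 at 24.2 CPM lay within the control range. The log2 fold change of Cdh1 was -0.56 ± 0.2 (SE, interval -0.99 to -0.12), larger in size than that of Cldn11, but with an adjusted p of 0.137 by edgeR it was not called. It was called in 4 of 21 alternatives, among them without DSS 2 (log2 fold change -0.74, edgeR adjusted p = 0.0149), without both mice numbered 2 (-0.66, 0.027) and with limma-voom (-0.67, 0.0299). DSS 2 was the highest DSS mouse for 7 of 9 members, all but Cldn11 and Marveld2. Its score of 10 skeletal muscle genes was 3.76 against -1.15 to 0.28 in the other DSS mice. The oligodendrocyte score of DSS 2 was 4.48 against 3.28 to 3.66, and its brain tissue score 4.07 against 2.83 to 3.0. Over the 12 mice Cdh1 had a Pearson r of 0.62 with the oligodendrocyte score (permutation test, p = 0.0228, adjusted p = 0.112). Within groups that r was 0.21 in controls and 0.93 in DSS mice, and the part of brain tissue in the Cdh1 values was not tested.

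**Figure D3:**
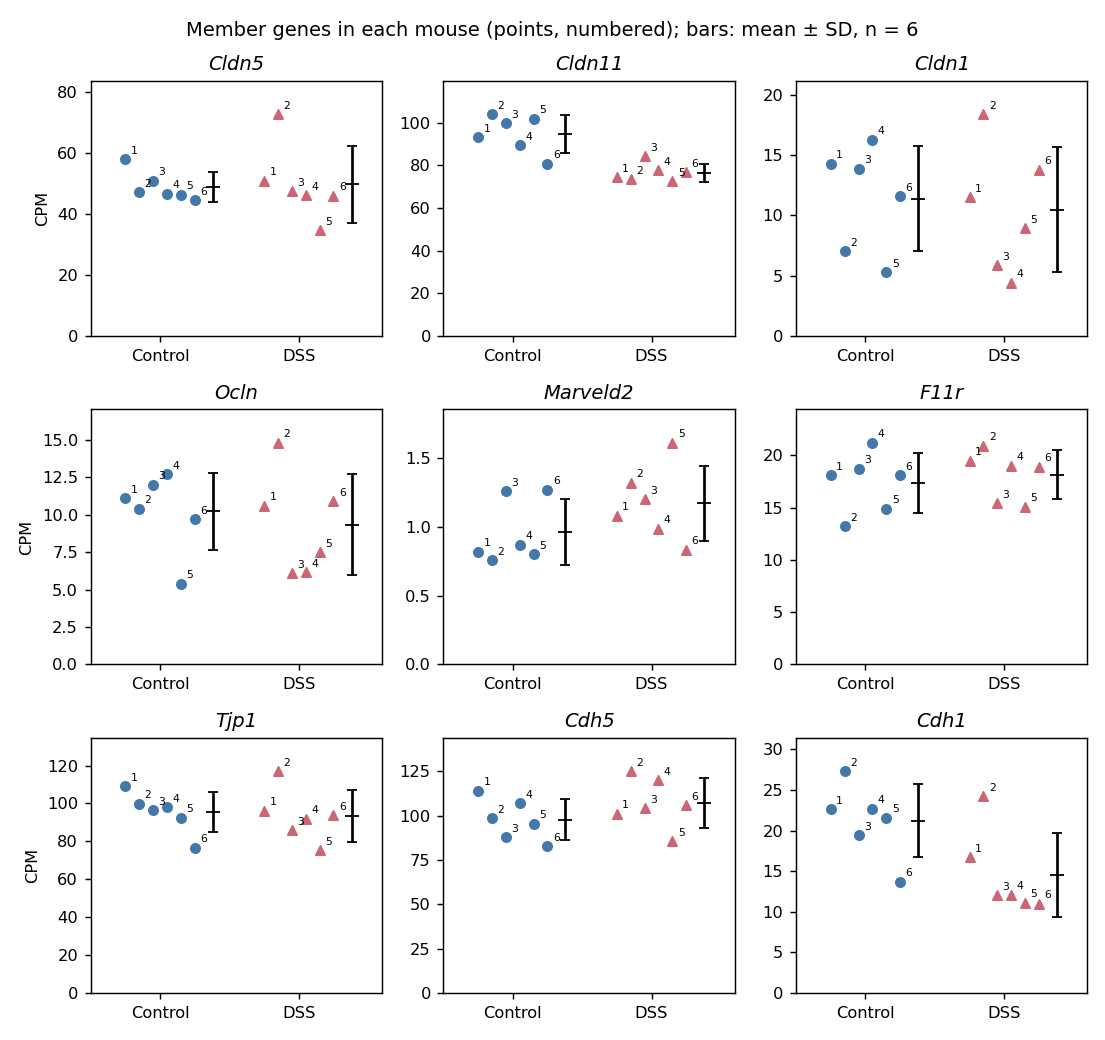
Level of each junction gene in CPM in every mouse, with the mouse number beside each point and bars for the mean ± SD of 6 mice. For Cldn11 the DSS mice sit between 72.6 and 84.2 CPM and overlap the controls only through DSS 3 and Control 6, and DSS 2 is the top DSS point for Cdh1, Cldn5 and Ocln.

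Cldn5 and Cdh5 were also set against 24 other endothelial genes, of which they are not part. The summed level of these genes, with von Willebrand factor (Vwf) the most abundant, was 1790 to 2540 CPM in controls and 1990 to 2750 CPM in DSS mice. Relative to their mean log2 CPM, Cldn5 stood at -0.33 ± 0.17 for controls against -0.52 ± 0.23 for DSS mice (SD, n = 6 per group), a difference of -0.19 (exact two-sided permutation test, p = 0.136, adjusted p = 0.351 over 3 measures). Cdh5 stood at 0.66 ± 0.12 and 0.61 ± 0.1, a difference of -0.05 (exact permutation p = 0.396, adjusted p = 0.396). Cldn5 relative to Cdh5 differed by -0.14 (exact permutation p = 0.234, adjusted p = 0.351). None of these 3 differences had an adjusted p under 0.05.

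Across mice some members varied with cell type markers. Each member was correlated with 4 marker scores, 36 relations in all, with p-values from 100000 permutations, and differences between relations were not tested. The choroid plexus score fell into separate clusters, so no r over all 12 mice is given for it. Cdh5 followed the endothelial score over 12 mice (r = 0.83, permutation p = 0.00094, adjusted p = 0.0113, and rho = 0.83, permutation p = 0.00172, adjusted p = 0.0206), with r = 0.75 without Control 3 and DSS 2 and r of 0.76 within controls and 0.86 within DSS mice. For Cldn5 the same relation did not pass (r = 0.52, permutation p = 0.0796, adjusted p = 0.261, and rho = 0.36, permutation p = 0.243, adjusted p = 0.515), with r of 0.34 within controls and 0.82 within DSS mice. Cldn5 was correlated with the oligodendrocyte score by Pearson's r (0.87, permutation p = 0.00023, adjusted p = 0.00414) but not by rho after adjustment (0.71, permutation p = 0.0119, adjusted p = 0.0613). Within groups that r was 0.64 in controls and 0.94 in DSS mice, and without Control 3 and DSS 2 it was 0.74. Tjp1 (r = 0.78, permutation p = 0.00244, adjusted p = 0.0219) and Ocln (r = 0.76, permutation p = 0.00304, adjusted p = 0.0219) had similar coefficients with it, with rho of 0.78 (permutation p = 0.00406) and 0.76 (permutation p = 0.00503), both with an adjusted p of 0.0362. Without the same 2 mice r was 0.72 for Tjp1 and 0.69 for Ocln. Within groups it was 0.47 and 0.93 for Tjp1, and 0.67 and 0.82 for Ocln, in controls and DSS mice respectively. DSS 2 had the highest oligodendrocyte score among the DSS mice (4.48 against 3.28 to 3.66), and the part of brain tissue in these relations was not tested.

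The choroid plexus, the epithelium that makes cerebrospinal fluid and carries its own tight junctions, was represented very unequally. Its hormone carrier Ttr ranged from 9.12 to 6430 CPM in controls and from 4.23 to 6540 CPM in DSS mice, and the summed level of 13 markers from 250 to 7260 and from 300 to 7320 CPM. The score did not differ between the groups (4.43 ± 1.92 and 4.52 ± 1.84, SD, n = 6 each, exact permutation p = 0.933, adjusted p = 0.933). Divided at the widest gap, its clusters were Control 2, Control 5, DSS 3 and DSS 4 at 1.31 to 3.39 and the other 8 mice at 5.02 to 6.15. DSS 3 lay between, at 3.39 with Ttr at 450 CPM. Control 2, Control 5 and DSS 4 scored 1.31 to 2.04 with Ttr at 4.23 to 11.8 CPM. Cldn1 was 4.43 to 7.04 CPM in the 4 mice with a low score and 8.96 to 18.4 CPM in the 8 with a high score, without overlap. Ocln was 5.4 to 10.4 against 7.49 to 14.8 CPM, whereas Cldn11 was 77.7 to 104 against 72.6 to 99.7 CPM. Within each treatment group, the mice with a low choroid plexus score had the highest Cldn11. Control 2 at 104 and Control 5 at 102 CPM stood above the other controls, which reached 99.7 CPM. DSS 3 at 84.2 and DSS 4 at 77.7 CPM stood above the other DSS mice, which reached 76.9 CPM. Within the 8 mice with a high score, of both treatment groups, Cldn11 had an r of 0.09 with the score (exact permutation p = 0.826, adjusted p = 0.826). Its rho there was 0.12 (exact permutation p = 0.793, adjusted p = 0.892). For F11r the clusters overlapped, at 13.2 to 19.0 against 15.1 to 21.2 CPM. DSS 4, with the lowest score of 1.31, stood at 19.0 CPM. Within the 8 mice with a high score, F11r followed the score (r = 0.95, exact permutation p = 0.000546, adjusted p = 0.00491 over 9 members, and rho = 0.93, exact permutation p = 0.00223, adjusted p = 0.0201). Ocln (r = 0.84, exact permutation p = 0.0118, adjusted p = 0.0531, and rho = 0.69, adjusted p = 0.249) and Cldn1 (r = 0.75, exact permutation p = 0.0322, adjusted p = 0.0967, and rho = 0.57, adjusted p = 0.308) did not pass after adjustment. With the score as covariate Cldn11 was still called lower (log2 fold change -0.30, edgeR adjusted p = 0.016). Because the mean score was similar in both groups, this setting could change the group difference little. The part of choroid plexus in the Cldn11 result was not tested.

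**Figure D4:**
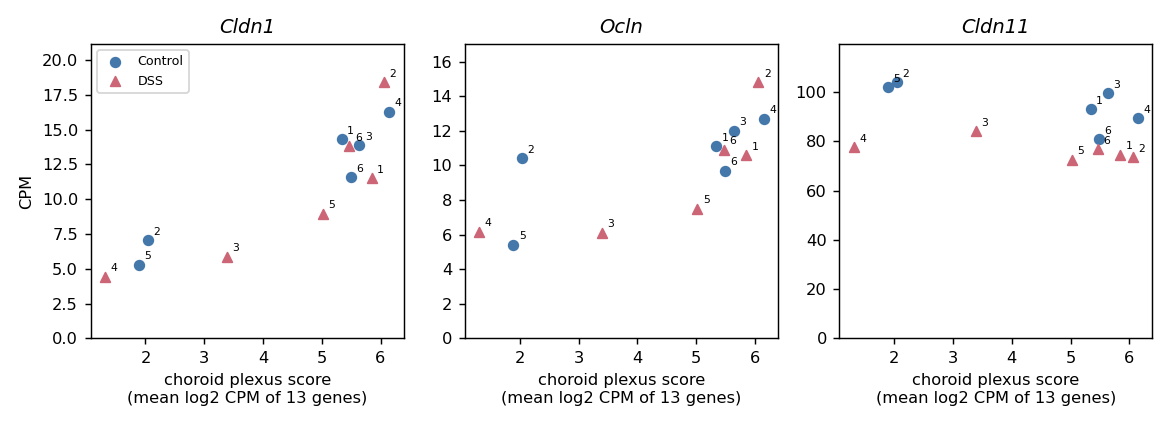
Level in CPM of Cldn1, Ocln and Cldn11 against the choroid plexus score (mean log2 CPM of 13 genes), 1 numbered point per mouse, circles for controls and triangles for DSS mice. The 4 mice with scores of 1.31 to 3.39 have Cldn1 at 4.43 to 7.04 CPM, below all 8 mice with scores of 5.02 to 6.15. For Cldn11 these 4 mice, Control 2, Control 5, DSS 3 and DSS 4, are the highest of their own treatment group.

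Some members moved together across mice. With log2 CPM centred within each group, Cldn1 and Ocln had an r of 0.92 over the 12 mice, Cldn5 and Tjp1 0.87, Tjp1 and Cdh1 0.85, and Tjp1 and Cdh5 0.83. Cldn11 reached at most 0.27 with another member, Tjp1, and had its lowest coefficients with F11r (-0.54) and Cldn1 (-0.53). These coefficients share libraries and depth and are given as a description. By the same measure, the genes most like each member were Ctnnal1 (0.99), Plppr4 (0.98) and Frem1 (0.98) for Cldn1, and Gpm6a, Mfsd6 and Frmpd4 (each 0.96) for Ocln. They were Rab11fip1 (0.96), Arfgef2 and Opa1 (each 0.94) for F11r, and Smek1 (0.96), Syne2 and Nr2f2 (each 0.95) for Tjp1. Nr2f2, an orphan nuclear receptor of venous endothelium and mesenchyme, was also the gene most like Cldn5 (0.96), ahead of Mbd6 and Taf15 (each 0.93). For Cdh5 they were Ncoa6, Plxnd1 and Kmt2a (each 0.94), of which Plxnd1 is a semaphorin receptor of endothelium, and for Cdh1 Adcyap1r1, Eif4g3 and Brd7 (each 0.92). For Cldn11 they were Rnu1b6, Snora7a and Plac9a (each 0.93), of which Rnu1b6 and Snora7a are small non-coding RNAs with near-identical copies, so that their counts are uncertain. Marveld2, with its few counts, had lower coefficients, 0.81 each with Cdpf1, Lenep and Coq4.

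Among 27 tested tight junction partners, other claudins, scaffolds and adhesion molecules, 1 was called higher and 0 lower, or 3.7% against 4.94% of all tested genes. The gene called was Cldn15, the pore-forming claudin of intestinal epithelium. Its level was 0.339 to 0.629 CPM in controls and 1.47 to 2.22 CPM in DSS mice. All 6 DSS mice lay above all 6 controls, as in 2.23% of tested genes. Cldn15 had a log2 fold change of 2.02 ± 0.22 (SE), or 4.05-fold (edgeR adjusted p = 0.000199), from a low level of 7 to 65 counts per library. Esam, an endothelial adhesion molecule, and Marveld1, the partners with the most RNA per kb, had log2 fold changes of 0.11 (edgeR adjusted p = 0.542) and 0.08 (edgeR adjusted p = 0.566). The median log2 fold change of these partners was -0.06, and 16 of 27 were below 0.

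Among 15 tested adherens junction partners, 1 was called higher and 0 lower, or 6.67% against 4.94% of all tested genes (3.68% higher). This was Arvcf, a catenin of the p120 family that binds the cadherin tail. Arvcf ranged from 46.5 to 63.8 CPM in controls and from 65.0 to 107 CPM in DSS mice, without overlap. Its log2 fold change was 0.60 ± 0.12 (SE, edgeR adjusted p = 0.0111). Ctnnb1, which encodes beta-catenin, and the mesenchymal cadherin Cdh11, the partners with the most RNA per kb, had log2 fold changes of -0.10 (edgeR adjusted p = 0.525) and -0.05 (edgeR adjusted p = 0.899). The list's median was -0.01, with 9 of 15 below 0.

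The 20 arachnoid barrier companions, among them transporters, enzymes, keratins, transcription factors and surface genes, had a median log2 fold change of -0.34. Of these, 16 of 20 were below 0, and the exceptions were Klf5 (0.01), Upk1b (0.03), Krt18 (0.04) and Crabp2 (0.13). Only 1, Aldh1a2, was called lower and 0 higher, or 5.0%, near the 4.94% of all tested genes (1.26% lower). An unadjusted p under 0.05 was found for 9 of 20, all of them lower, against 3525 of 18593 genes. Aldh1a2, the retinoic acid synthesis enzyme of meningeal fibroblasts and arachnoid cells, fell from 58.1 ± 11.5 to 37.7 ± 4.16 CPM (SD, n = 6 each). All 6 DSS mice lay below all controls, and the log2 fold change was -0.62 ± 0.12 (SE, edgeR adjusted p = 0.00874). With the endothelial score as covariate the log2 fold change of Aldh1a2 was -0.49 and its edgeR adjusted p 0.0759, in the setting that cut calls over all genes from 919 to 429. The prostaglandin D2 synthase gene Ptgds (1160 ± 301 and 758 ± 326 CPM, SD, n = 6 each, log2 fold change -0.61, edgeR adjusted p = 0.223) and the transporter gene Slc47a1 (239 ± 33.4 and 197 ± 31.9 CPM, SD, n = 6 each, log2 fold change -0.28, edgeR adjusted p = 0.208) were the companions with the most RNA per kb.

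The 24 endothelial genes had a median log2 fold change of 0.18, with 2 of 24 below 0. Of these, 2 were called higher and 0 lower, or 8.33% against 4.94% of all tested genes (3.68% higher). Of the 24 genes 9 had an unadjusted p under 0.05, none of them lower, against 3525 of 18593. Eng, which encodes the TGF-beta co-receptor endoglin, was at 94.5 ± 14.2 CPM for controls against 123 ± 11.5 CPM for DSS mice (SD, n = 6 per group), a log2 fold change of 0.38 ± 0.1 (SE, edgeR adjusted p = 0.0394). Ecscr, an endothelial sialomucin gene, was at 12.5 ± 1.61 and 16.4 ± 1.21 CPM (SD, n = 6 each), a log2 fold change of 0.39 ± 0.09 (SE, edgeR adjusted p = 0.0217). For each of them 5 of 6 DSS mice lay above the highest control. With each of the 12 mice left out in turn, the Ecscr call was kept 8 times and lost without Control 5, DSS 1, DSS 4 or DSS 6 (edgeR adjusted p of up to 0.0566). The Eng call was kept 5 times and lost without any of those 4 mice or without Control 2, Control 3 or Control 6 (up to 0.0964). Egfl7, a secreted endothelial factor, had a log2 fold change of 0.25 (edgeR adjusted p = 0.197), and Plvap, the protein of fenestral diaphragms, had 0.04 (edgeR adjusted p = 0.897).

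**Figure D5:**
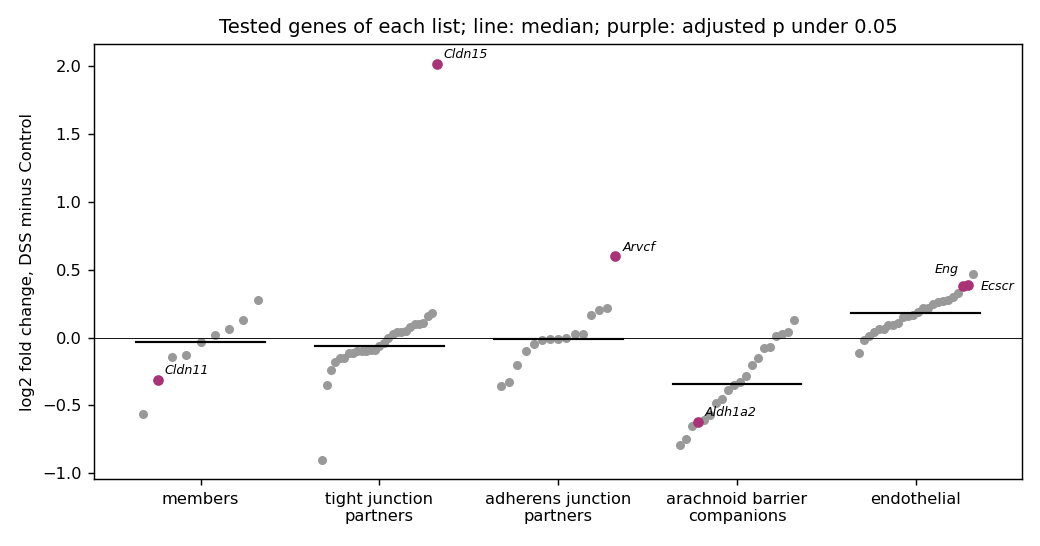
Log2 fold change, DSS minus Control, of every tested gene of the junction members and of the 4 partner lists, with a line at each list's median and called genes in purple. Medians run from -0.34 for the arachnoid barrier companions to 0.18 for the endothelial genes, and 6 genes over the 5 lists are called.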

How the data were processed

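Total RNA libraries of 12 meninges samples, 6 per group, were analysed, with groups and mouse numbers taken from the labels. Per the submitters' processing notes, CASAVA, FastQC, Trim Galore, HISAT2 and featureCounts were used with the mm10 build. Not given in the sources used here are versions, annotation, strand setting and the handling of multiply mapping reads. Reads of genes that overlap on opposite strands therefore cannot be told apart. The authors deposited whole-number counts per gene symbol, not normalized, which entered every test, and 0 columns belonged to no sample. A second deposited table of normalized values was not used.

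Genes were tested under R 4.3.3 and edgeR 4.0.16 by the quasi-likelihood F-test, two-sided, after filterByExpr (at least 10 counts, total of 15) and TMM scaling, with treatment alone in the design, and called at a Benjamini-Hochberg adjusted p under 0.05 over all 18593 tested genes. Standard errors were derived from F, as the size of the log2 fold change divided by its root. CPM is on TMM-scaled libraries, log2 CPM has a prior count of 2, and a score is the mean log2 CPM of a list's tested genes. Exact permutation tests between groups ran over all 924 splits of the mice, and those of correlations within 8 mice over all pairings of their values. Exon lengths and positions come from GENCODE M21 on GRCm38, in which 45251 of the 47747 symbols were found and no other gene shares exon bases with a member. RefSeq promoters were found for 7 of the 9 members. Named partners are the called genes of each list, up to 5, and the 2 with the most RNA per kb, and for each member the 3 most like genes whose log2 CPM averages at least 1.

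Alternatives were DESeq2 1.42.0 size factors and Wald test, limma-voom (limma 3.58.1) with quality weights, no filter, a CPM of at least 1 in 6 libraries, a replicate block, an endothelial or choroid plexus covariate, both mice numbered 2 left out, and each mouse left out. The members and lists were chosen with earlier results of these data known. Total counts of 9312788 to 41869997 set the counting error. The p-values of group differences weigh a difference against the spread between mice and do not measure that spread.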

Additional observations from a re-analysis of the deposited data

Results flagged for a closer look

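In 54 groups of 6 values, 5 held a mouse whose gap to its nearest neighbour was, as a ratio to the whole range, above the 95% limit of Dixon's test. Chance gives about 1 in 20 groups. Ocln in Control 5 was the only value of a junction gene among them, with a ratio of 0.68 (log2 CPM of 2.45 against 3.29 to 3.67 in the other controls). The oligodendrocyte score of DSS 2 had a ratio of 0.68 (4.48 against 3.28 to 3.66), its skeletal muscle score one of 0.71 (3.76 against -1.15 to 0.28) and its neuron and brain tissue score one of 0.86 (4.07 against 2.83 to 3.0). The neutrophil score of DSS 3 had a ratio of 0.84, at 3.96 against 5.83 to 6.2 for the rest of its group, and DSS 3 was also the DSS mouse with the highest Cldn11.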

How the results depend on the processing

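Over 21 alternatives Cldn11 stayed lower in DSS mice (log2 fold change -0.34 to -0.26) and was called in 15 (adjusted p 0.00229 to 0.0932), while Cdh1 (-0.78 to -0.46) was called in 4 (adjusted p 0.0149 to 0.27) and the other 7 members in 0. The number of members called lower was 0 with the endothelial covariate, 2 with limma-voom, and 0 to 2 with each mouse left out (0 without Control 2, 3 or 5, and 2 without DSS 2). With DESeq2's Wald test 1 tight junction partner (Cldn22), 1 adherens junction partner (Ctnna1) and 2 arachnoid barrier companions (Aldh1a2 and Slc22a6) were called lower, names given after their values were seen. Companions called lower numbered 2 with limma-voom, 2 without both mice numbered 2, and 0 with the endothelial covariate. Endothelial genes called higher numbered 1 without both mice numbered 2, 1 with no filter and 0 with the endothelial covariate, whose score includes them. With each mouse left out, 0 to 1 partners of either junction list were called lower (1 tight junction partner without Control 2 or DSS 2, 1 adherens junction partner without Control 2 or DSS 5), 1 to 2 companions (2 without DSS 2), and 0 to 3 endothelial genes higher (0 without Control 5, DSS 1, DSS 4 or DSS 6, 3 without Control 1). Calls over all genes were 1551 with DESeq2's Wald test, 1363 with limma-voom and 429 with the endothelial covariate, against 919.

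Expression gave no sign that mouse numbers pair the samples. Same-numbered deviations correlated at -0.19 to 0.15, and 0 of 6 controls correlated best with their own number. Low correlations cannot show that the numbers carry no pairing. With the replicate block 1 member was called lower, Cdh1 (-0.58, edgeR adjusted p = 0.0298), Cldn11 was not (-0.30, 0.0568), and 4 arachnoid barrier companions were called lower. Marveld2 rests on 9 to 46 counts per library, the fewest of the members.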
